A study of Homo sapiens with 3 samples.

Results

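The 10 genes described here encode the stress-response transcription factor NRF2, its inhibitor KEAP1, and 8 proteins of the antioxidant defence that NRF2 is known for: NQO1, HMOX1, GCLC, GCLM, TXNRD1, SRXN1, SLC7A11 and GPX4. They were chosen by name, and all 10 were found among the 58302 gene identifiers of the count files by their GENCODE symbols. RNA was sequenced from 3 libraries of C4-2, a wild type human prostate adenocarcinoma line, grown without any treatment named in the labels. The study also set adenocarcinoma against neuroendocrine lines and depleted neuropilin-2 by siRNA; those samples were not analysed here, so the libraries form 1 group and no contrast between conditions was made. Nothing in the labels says that the libraries came from separate cultures, and their spread may be technical.

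NRF2 is a transcription factor that is held low in resting cells by KEAP1, an adaptor that hands it to a CUL3 ubiquitin ligase for destruction. Oxidants and electrophiles modify cysteines of KEAP1, NRF2 then accumulates, and with a small MAF partner it binds antioxidant response elements near genes of glutathione synthesis, thioredoxin recycling, quinone reduction and haem breakdown. Ferroptosis is an iron-dependent cell death driven by peroxidised membrane lipids. The selenoenzyme GPX4 reduces those lipids with glutathione, whose synthesis depends on cysteine, imported as cystine by the transporter that SLC7A11 encodes. Because NRF2 is controlled largely at the protein level, the transcript of NFE2L2 is not a measure of its activity.

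The libraries held 47513470 to 51200272 reads assigned to genes. All 10 prostate luminal markers checked were detected, with a summed level of 4192 to 4247 TPM (reads per exon length, as parts of a constant total in each library). Of these KLK3 (1440 ± 26.3 TPM) and FOLH1 (425 ± 28.2) were among the highest and EPCAM (81.2 ± 2.61) lowest. Of 7 neuroendocrine markers 5 were detected, CHGA (2.53 ± 0.336 TPM), SYP (2.29 ± 0.312) and INSM1 (0.495 ± 0.110) highest, with NEUROD1 at 0 reads and a sum of 5.46 to 6.88 TPM. Of 4 basal markers KRT14 (1.01 ± 0.121 TPM) and KRT15 (0.203 ± 0.0513) were detected and TP63 and KRT5 were at 0, with a sum of 1.01 to 1.31 TPM. Of 8 fibroblast and endothelial markers 3 were detected, COL1A1 (10.2 ± 0.392 TPM), VWF (3.68 ± 0.191) and PDGFRB (1.17 ± 0.133), which made up nearly all of the sum of 14.9 to 15.3 TPM, and COL1A2 was at 0. Of 6 blood and immune markers CD14 (0.572 ± 0.22 TPM) alone was detected, with CD68 (0.450 ± 0.352) next, CD3E and HBB at 0, and a sum of 0.754 to 1.58 TPM. In bulk RNA, fewer cells expressing a gene and less RNA per cell cannot be told apart. Means are given in TPM with their SD, n = 3.

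The response element gives the pathway its sequence signature, and the member promoter windows with a match to its core are shown here. RefSeq promoter windows (GRCh38.p14, 250 bases before to 50 after a gene start) were given for 8 members in 13 windows; HMOX1 and SLC7A11 were not matched. The core TGACNNNGC, searched on both strands, was found in 4 of these 13 windows, belonging to GCLM, TXNRD1 and KEAP1, and in 13.3% of all 35116 windows. Its first letters can overlap an AP-1 site. The amino acid response element core TGATGNAA was in none of the 13 windows and in 3.62% of all windows. Each line gives 49 bases in the direction of the gene, with the match in capitals, which on lines with GC first lies on the opposite strand.

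GCLM, chr1:93909436-93909484, minus strand: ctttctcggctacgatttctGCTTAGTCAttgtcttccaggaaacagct
TXNRD1, first start, chr12:104215660-104215708, plus strand: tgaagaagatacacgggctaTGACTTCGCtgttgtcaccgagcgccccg
TXNRD1, first start, chr12:104215751-104215799, plus strand: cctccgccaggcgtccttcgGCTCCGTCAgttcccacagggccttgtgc
TXNRD1, second start, chr12:104286910-104286958, plus strand: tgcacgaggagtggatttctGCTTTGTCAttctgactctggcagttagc
KEAP1, second start, chr19:10502774-10502822, minus strand: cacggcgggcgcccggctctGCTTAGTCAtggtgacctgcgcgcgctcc

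GCLM and the second start of KEAP1 held the same 9 letters, GCTTAGTCA, ending 26 and 23 bases before the gene start. That KEAP1 window held another match, TGACACGGC, ending 46 bases before the start. Of the TXNRD1 matches, TGACTTCGC ended 91 bases before the first start, GCTCCGTCA reached the first start itself and GCTTTGTCA ended 94 bases before the second start. A match describes the letters in the window only, and these libraries do not measure binding. Sequence outside the windows of 300 bases was not searched, so a member without a match may still have the element elsewhere.

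All 10 genes were detected, which took at least 10 reads in each of the libraries, as were 71.8% of protein-coding genes. Each also lay at 1 TPM or more, which 62.7% of protein-coding genes reached, and each still lay above 10 TPM. Their median was 29.7 TPM, beside 5.43 TPM over all protein-coding genes and 15.9 TPM over the detected ones. The order from high to low was GPX4, TXNRD1, KEAP1, NQO1, HMOX1, NFE2L2, GCLM, SLC7A11, GCLC and SRXN1. In 8 of the 9 neighbouring steps of that order the libraries of the higher gene all lay above those of the lower one; SLC7A11 and GCLC overlapped and differed by 0.0964 ± 0.743 TPM.

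**Figure D1:**
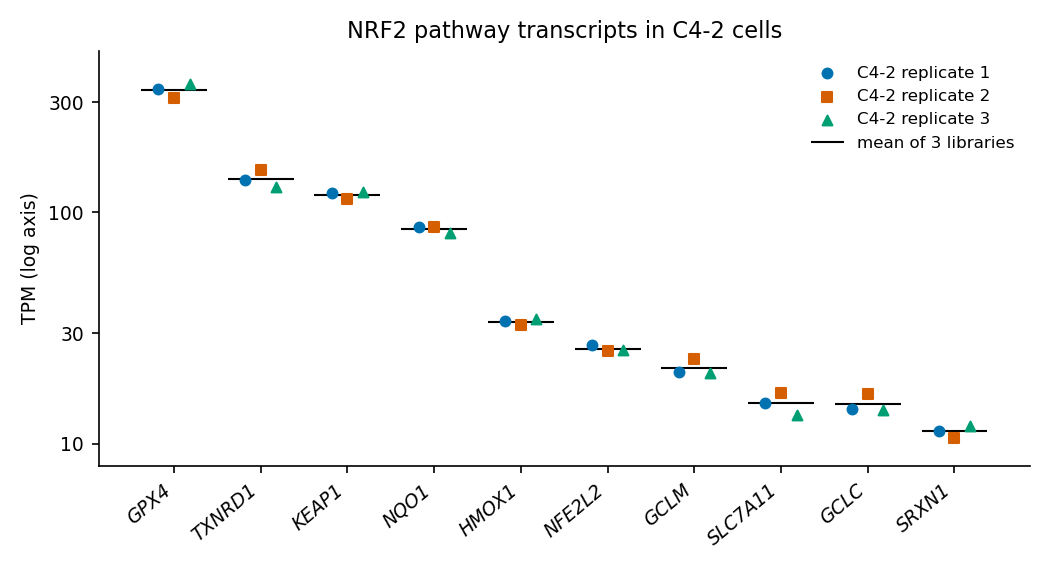
TPM (log axis) of the 10 genes in the 3 C4-2 libraries, 1 point per library, with a bar at the mean. GPX4 lies at 338 TPM and SRXN1 at 11.3 TPM, and the points of SLC7A11 and GCLC overlap.

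NFE2L2, which encodes NRF2, was of middling abundance. Its exons lie at chr2:177227595-177392697 on the minus strand (GRCh38), and it had 2686, 2310 and 2537 reads in replicates 1, 2 and 3, or 26.8, 25.1 and 25.4 TPM. The mean of 25.8 ± 0.885 TPM was at percentile 73.4 among protein-coding genes. Of its exon bases 20.9% are shared with other genes, mostly an unnamed long non-coding RNA on the same strand, and reads falling there were not counted.

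KEAP1 transcripts were several times more abundant than those of NFE2L2. KEAP1 (chr19:10486120-10503741, minus strand) lay at 121, 114 and 123 TPM, a mean of 119 ± 4.47 at percentile 94.4. NFE2L2 minus KEAP1 was −2.21 ± 0.0508 on the log2(TPM + 0.1) scale, a 4.62-fold lower level of NFE2L2. The sign was the same in 3 of 3 libraries (exact two-sided sign-flip permutation p = 0.25, the smallest that 3 libraries allow; adjusted over 11 pairs 0.25). No pair difference described here can therefore pass 0.05, and all 11 have the p of this one and the same sign in all 3 libraries.

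NFE2L2 was set against a competitor and a relative as well. BACH1, a repressor that binds the same elements with small MAF partners, lay at 15.2, 15.4 and 13.6 TPM, below NFE2L2 in each library, and NFE2L2 exceeded it by 0.80 ± 0.0969 log2 units. NFE2L1, a related factor known for control of proteasome genes, lay at 128, 132 and 132 TPM, and NFE2L2 minus NFE2L1 was −2.34 ± 0.0775 log2 units. All 15 genes of the regulator list were detected at 1 TPM or more, with a median of 45.8 TPM. NFE2L1, KEAP1 and DPP3, a peptidase that can bind KEAP1, were highest at 131 ± 2.62, 119 and 77.0 ± 0.165 TPM. The small MAF gene MAFF was lowest at 2.56 ± 0.248 TPM. The other listed small MAF genes, MAFG and MAFK, lay at 30.9 ± 1.16 and 45.8 ± 0.963 TPM. They were named after their values were seen.

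GCLC and GCLM encode the catalytic and the modifier subunit of glutamate-cysteine ligase, the first and limiting step of glutathione synthesis. GCLC (chr6:53497341-53616970, minus strand) had 2010, 2138 and 1978 reads, or 14.1, 16.4 and 14.0 TPM, with a mean of 14.8 ± 1.35 at percentile 63.0. GCLM (chr1:93885205-93909456, minus strand) had 1863, 1935 and 1823 reads, or 20.5, 23.2 and 20.1 TPM, with a mean of 21.3 ± 1.67 at percentile 69.6. Both were highest in replicate 2, and their ratio moved little: GCLC minus GCLM was −0.53, −0.50 and −0.52 log2 units in the libraries. The direction rests on the gene length used, since the difference turned to 0.49 with the length of the longest coding transcript in place of all merged exons.

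SLC7A11 encodes the exchanger subunit of the cystine importer and SLC3A2 its heavy chain, which also serves other amino acid transporters. SLC7A11 (chr4:138164097-138242349, minus strand) had 2422, 2459 and 2146 reads, or 15.0, 16.6 and 13.3 TPM. Its mean of 14.9 ± 1.61 was at percentile 63.2, and it had the widest spread of the 10 genes, with a coefficient of variation of 10.8%. SLC3A2 lay at 114, 118 and 115 TPM, above SLC7A11 in every library. SLC7A11 minus SLC3A2 was −2.95 ± 0.137 log2 units, a 7.73-fold lower level of SLC7A11, and the gap widened to −4.10 with the longest coding transcript as length. SLC7A11 shares 8.97% of its exon bases with the antisense gene SLC7A11-AS1, which had 71, 78 and 59 reads.

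All 13 genes of glutathione supply were detected at 1 TPM or more, with a median of 21.3 TPM, the level of GCLM itself. The glutathione reductase gene GSR was highest at 389 ± 6.43 TPM, followed by GSS, the second enzyme of glutathione synthesis, at 203 ± 4.95 and SLC3A2 at 116 ± 2.12. CTH, which makes cysteine from cystathionine, was lowest at 10.6 ± 0.382 TPM.

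TXNRD1 encodes the cytosolic thioredoxin reductase, a selenoenzyme that passes electrons from NADPH to thioredoxin. It was the second most abundant member (chr12:104215779-104350305, plus strand), with 15602, 15806 and 14403 reads, or 139, 153 and 129 TPM. The mean was 140 ± 12.3 TPM, at percentile 95.4, with replicate 2 highest and replicate 3 lowest. It held 60.6 ± 1.71% of the summed TPM of the 3 thioredoxin reductase genes. It exceeded its mitochondrial counterpart TXNRD2, at 65.5, 70.1 and 69.3 TPM, by 1.03 ± 0.125 log2 units, which narrowed to 0.38 with the longest coding transcript as length.

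SRXN1 encodes sulfiredoxin, which restores over-oxidised peroxiredoxins, and its deposited count understates it. It lies at chr20:646615-653370 on the minus strand, and 85.0% of its exon bases are also annotated to ENSG00000270299, a protein-coding gene on the same strand. Reads there belong to both annotations and were not counted for either. Over the full exon length SRXN1 had 513, 441 and 538 reads, or 11.3, 10.6 and 11.9 TPM, with a mean of 11.3 ± 0.665, the lowest of the 10. Over its 406 unshared exon bases the same reads gave 71.4 TPM. SRXN1 minus SESN2, a stress-inducible sestrin gene at 31.4 ± 0.980 TPM, accordingly turned from −1.47 ± 0.0405 to 1.25 log2 units, so neither the direction of this pair nor the place of SRXN1 in the order is settled.

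**Figure D2:**
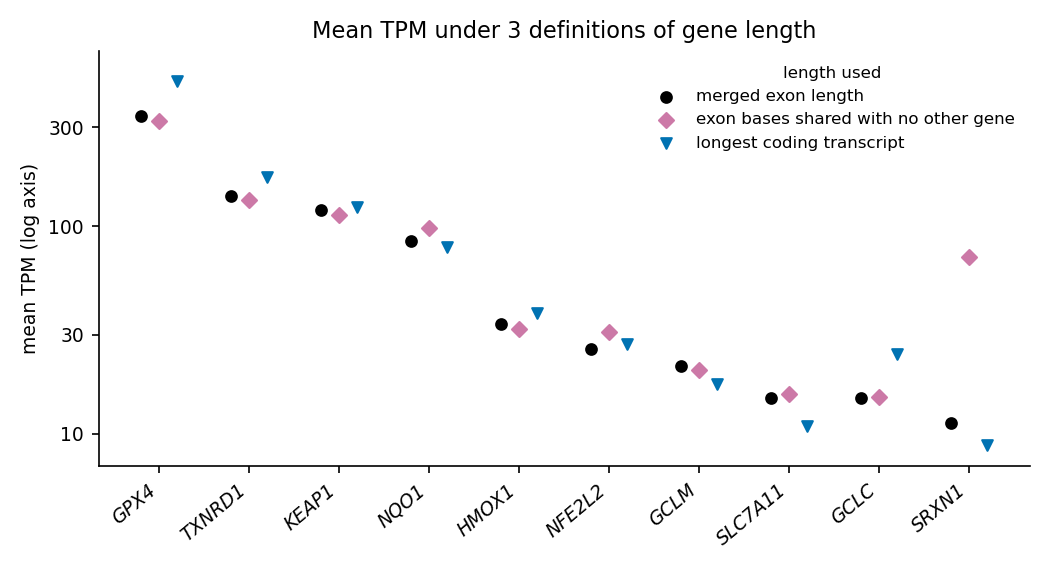
Mean TPM over 3 libraries (log axis) of the 10 genes with 3 definitions of gene length. SRXN1 moves from 11.3 to 71.4 TPM on its unshared exon bases, GCLC from 14.8 to 24.3 TPM with the longest coding transcript, and GPX4 from 338 to 502 TPM.

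All 16 genes of the thioredoxin and peroxiredoxin list were detected at 1 TPM or more, with a median of 148 TPM. The peroxide-reducing peroxiredoxin genes PRDX1 (518 ± 36.5 TPM), PRDX2 (491 ± 17.5) and PRDX6 (378 ± 8.73) were highest. The glutaredoxin gene GLRX was lowest at 5.22 ± 0.254 TPM.

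NQO1 encodes a quinone reductase that uses NADPH or NADH and is a standard readout of NRF2 activity. NQO1 (chr16:69706996-69726951, minus strand) had 4707, 4316 and 4425 reads, or 86.2, 86.1 and 81.4 TPM, with a mean of 84.6 ± 2.71 at percentile 91.7. It shares 17.7% of its exon bases with a long non-coding RNA on the other strand that had 0 reads. Its paralogue NQO2 lay at 17.9, 18.0 and 18.3 TPM, and NQO1 exceeded it by 2.22 ± 0.0626 log2 units. The difference turned to −0.34 with the longest coding transcript as length, as NQO2 has 11558 merged exon bases and a longest coding transcript of 1508.

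Of 11 genes of quinone and carbonyl reduction, 7 were detected and 7 reached 1 TPM, with a list median of 12.3 TPM. EPHX1, the microsomal epoxide hydrolase gene, was highest at 434 ± 11.9 TPM, with NQO1 next and the carbonyl reductase gene CBR1 at 73.2 ± 5.16. AKR1B1 was the lowest detected, at 4.33 ± 0.473 TPM. The 4 undetected genes, named after their values were seen, were all aldo-keto reductases: AKR1C1 had 0, 2 and 0 reads, AKR1C2 2, 2 and 2, AKR1C3 8, 2 and 0, and AKR1B10 2, 0 and 0. The AKR1C genes are close copies of one another, and reads that fit more than 1 place were not counted, so these low values are uncertain.

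HMOX1 encodes the inducible haem oxygenase, which opens haem to biliverdin and frees its iron. HMOX1 (chr22:35380361-35394214, plus strand) had 1368, 1205 and 1395 reads, or 33.9, 32.5 and 34.7 TPM, with a mean of 33.7 ± 1.11 at percentile 78.5. The constitutive HMOX2 lay at 44.4, 43.3 and 41.6 TPM, above HMOX1 in every library. HMOX1 minus HMOX2 was −0.35 ± 0.0824 log2 units, a 1.28-fold lower level of the inducible form.

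All 12 genes of haem and iron handling were detected at 1 TPM or more, with a median of 90.6 TPM. The ferritin chain genes FTL (546 ± 15.7 TPM) and FTH1 (414 ± 62.5) and the biliverdin reductase gene BLVRB (225 ± 15.1) were highest. The iron exporter gene SLC40A1 was lowest at 1.96 ± 0.319 TPM. FTH1 shares 62.4% of its exon bases with BEST1 on the other strand, and reads falling there were not counted. On unshared exon bases FTH1 lay at 1049 TPM and FTL at 520, so the level of FTH1 and its order with FTL are uncertain.

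GPX4, the phospholipid hydroperoxide peroxidase, was the most abundant of the 10 genes. GPX4 (chr19:1103926-1106791, plus strand) had 11611, 9746 and 12076 reads, or 343, 313 and 358 TPM, lowest in replicate 2. The mean of 338 ± 22.7 TPM was at percentile 98.6 among protein-coding genes. Within the glutathione peroxidase family GPX4 held 41.6 ± 1.23% and the cytosolic GPX1 55.9 ± 1.20% of summed TPM. GPX4 minus GPX1 (456, 446 and 461 TPM) was −0.43 ± 0.0739 log2 units, and turned to 0.28 with the longest coding transcript as length.

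The rest of the peroxidase family was low. GPX8 lay at 11.1 ± 0.815 TPM and GPX2 at 3.41 ± 0.423, the lowest of the 5 detected among 8. GPX5, GPX6 and GPX7 had 0 reads in every library; a count of 0 allows up to 3 reads, or 6 if both mates of a fragment were counted, which is 0.126 CPM (counts scaled to library size) in the smallest library. The list median was 4.67 TPM. All 7 genes that make or supply selenoproteins were detected at 1 TPM or more, with a median of 15.9 TPM. SEPHS2, which makes selenophosphate, was at 132 ± 5.23 TPM, its relative SEPHS1 at 87.2 ± 0.946, the selenocysteine elongation factor gene EEFSEC at 81.3 ± 6.03 and SEPSECS, the last enzyme of selenocysteine synthesis on its tRNA, lowest at 6.34 ± 0.833.

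AIFM2, which encodes the ferroptosis suppressor FSP1, a ubiquinone reductase that acts beside GPX4, was detected but at a low level. It had 66, 66 and 76 reads, or 0.766, 0.835 and 0.886 TPM, with a mean of 0.829 ± 0.0606. GPX4 exceeded it by 8.51 ± 0.119 log2 units, or 364-fold, and by 7.53 with a pseudocount of 1. All 10 genes listed as defence beside GPX4 were detected and 9 reached 1 TPM, AIFM2 being the exception. The list median was 47.5 TPM, and the monounsaturated lipid genes SCD (218 ± 7.07 TPM) and ACSL3 (157 ± 13.3) and the sterol reductase gene DHCR7 (103 ± 4.04) were highest. The list counts and median include DHCR7, whose place on the defence side is not settled here, so its level is not read as protection.

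Genes on the opposite side, those that make membranes easier to peroxidise, covered a wide range. Of 12 such genes 11 were detected and 10 reached 1 TPM, with a median of 25.2 TPM. PEBP1, a lipoxygenase partner, was highest at 577 ± 13.0 TPM. The lipoxygenase gene ALOX15 followed with 7200, 6886 and 7401 reads, or 129 ± 2.83 TPM, and the polyamine acetyltransferase gene SAT1 lay at 72.3 ± 2.06. ALOX5 was the lowest detected at 0.420 ± 0.134 TPM. ACSL4, named after its values were seen, encodes the ligase that loads polyunsaturated fatty acids and had 171, 124 and 169 reads, or 1.47 ± 0.189 TPM.

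Enzymes that supply NADPH or remove superoxide and hydrogen peroxide were detected throughout. All 9 NADPH-supply genes reached 1 TPM, with a median of 145 TPM, led by IDH2 (354 ± 4.10 TPM), TALDO1 (258 ± 3.06) and IDH1 (190 ± 10.4), and NNT was lowest at 8.94 ± 0.838. All 4 matched superoxide dismutase and catalase genes reached 1 TPM: SOD1 at 340 ± 8.39, CAT at 59.5 ± 1.07, the copper chaperone gene CCS at 36.3 ± 2.75 and SOD3 at 18.9 ± 0.627. SOD2 was not matched by identifier and is not analysed here.

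**Figure D3:**
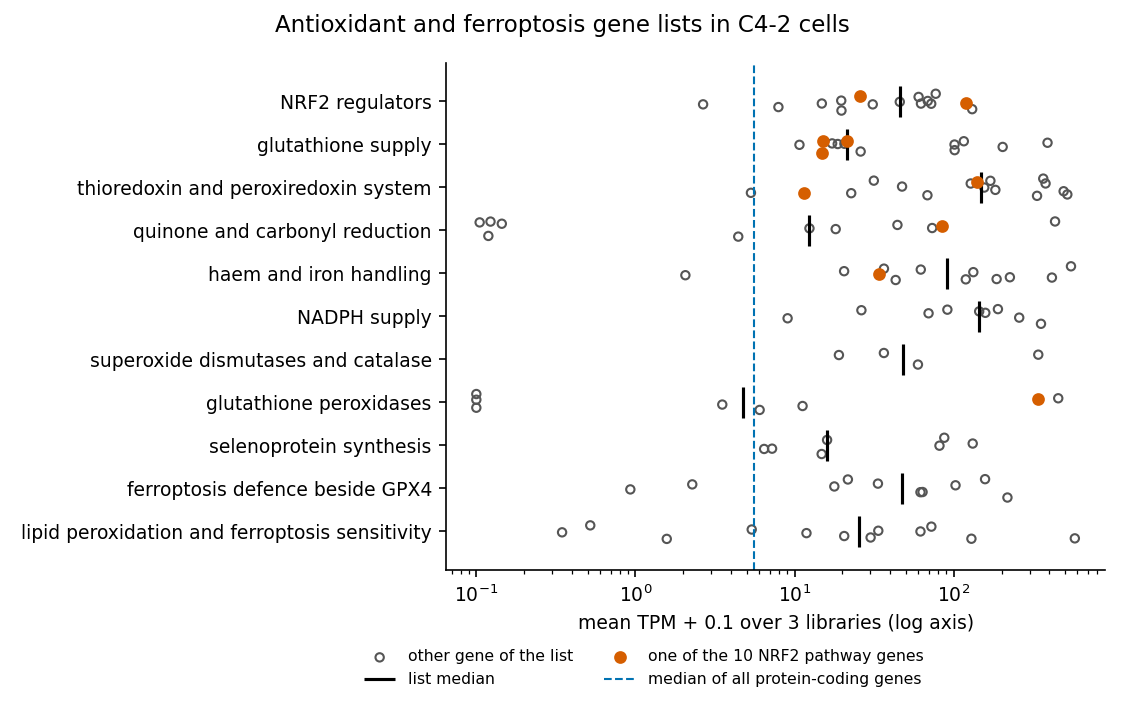
Mean TPM plus 0.1 (log axis) of the genes of 11 pathway lists, 1 point per gene, with the 10 NRF2 pathway genes filled, a bar at each list median and a dashed line at the median of all protein-coding genes. The glutathione peroxidase median, 4.67 TPM, lies below the dashed line at 5.43 TPM, and the other 10 list medians lie above it.

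**Figure D4:**
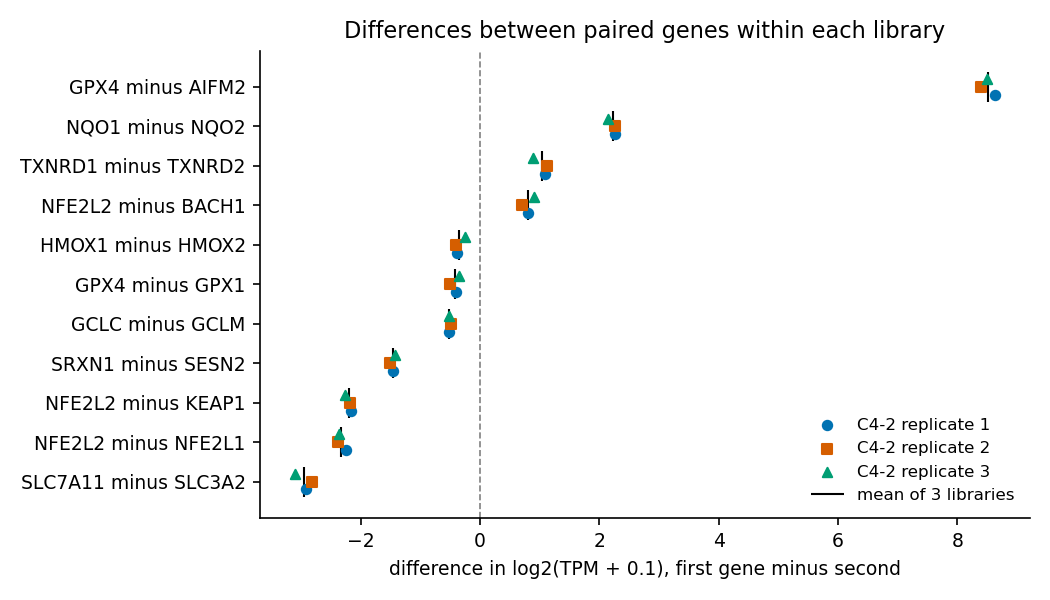
Difference in log2(TPM + 0.1) between the genes of 11 pairs within each of the 3 C4-2 libraries, with a bar at the mean and a dashed line at 0. Each pair has the same sign in 3 of 3 libraries, from −2.95 for SLC7A11 minus SLC3A2 to 8.51 for GPX4 minus AIFM2.

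The number of members that differed between the libraries by more than counting error was 8 with each read taken as independent and 5 with a correction for read pairs. A chi-square test of homogeneity over the 3 counts of each gene, taking reads as independent, with Benjamini-Hochberg adjustment over 21039 detected genes, called 8 of the 10, beside 46.1% of all detected genes. Among the 10038 genes with at least 441 reads in every library, the lowest member count, 58.7% were called. The adjusted p was 2.63e-38 for GPX4, 3.51e-24 for TXNRD1, 6.05e-11 for KEAP1, 1.47e-06 for SLC7A11, 0.000417 for GCLC, 0.00954 for GCLM, 0.0174 for NFE2L2 and 0.0311 for HMOX1. SRXN1 (0.0650) and NQO1 (0.404) were not called.

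Reads were not independent in these counts. Among genes with 1 to 4 reads, 81.4% to 86.7% of the values in a library were even, and the recorded counting options take each mate of a pair by itself. With the statistic divided by 2 for that reason, 5 members were called: GPX4 (adjusted p = 2.41e-18), TXNRD1 (2.03e-11), KEAP1 (4.24e-05), SLC7A11 (0.00421) and GCLC (0.0489). The share called was then 17.6% of all detected genes and 29.1% of those with at least 441 reads. GCLM, HMOX1 and NFE2L2 lost the call at adjusted p of 0.173, 0.275 and 0.219. By the same halved statistic 9 of the 16 thioredoxin and peroxiredoxin genes, 6 of the 9 NADPH-supply genes and 2 of the 13 genes of glutathione supply varied between libraries.

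Replicate 2 was the highest or the lowest library for 9 of the 10 members, beside 70.4% of detected genes and 73.7% of those with at least 441 reads. Replicate 3 was so for 7 members, beside 70.5% of detected genes and 74.2% of those with at least 441 reads. Replicate 1 was so for 4, beside 59.1% and 52.1%. Scaled by TMM, replicate 2 was the highest library for GCLC, GCLM, TXNRD1 and SLC7A11, by 0.14 to 0.18 log2 units against the mean of the other 2. It was the lowest for NFE2L2, KEAP1, HMOX1, SRXN1 and GPX4, by −0.11 to −0.21 log2 units, and NQO1 lay between. Without replicate 2 the test called 3 members, TXNRD1, SLC7A11 and GPX4, beside 23.8% of genes tested. With the halved statistic and without replicate 2 it called only GPX4 (adjusted p = 0.00537), beside 5.89%. The halved statistic without replicate 3 called KEAP1, TXNRD1 and GPX4, beside 6.58%, and without replicate 1 it called KEAP1, TXNRD1, SLC7A11 and GPX4, beside 14.9%.

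Base composition moved with these deviations. The exons of the 4 members highest in replicate 2 had 35.4% to 46.3% GC, and those of the 5 lowest 44.8% to 68.3%, so the ranges overlapped between 44.8% and 46.3%. Over all detected genes, the median deviation of replicate 2 was 0.08 log2 units in the lowest of 4 equal GC groups (26.5% to 42.6%) and −0.07 in the highest (56.0% to 86.4%). Replicate 3 had the opposite pattern, −0.09 and 0.07. Across 21029 genes, Spearman's rho between GC and deviation was −0.25 in replicate 2, 0.29 in replicate 3 and −0.04 in replicate 1, as a description across genes that share a library. Merged exon length ran from 5420 to 9645 bases in the 4 members highest in replicate 2 and from 2019 to 5979 in the 5 lowest. Across the same 21029 genes, rho between length and deviation was 0.04 in replicate 2, −0.05 in replicate 3 and −0.003 in replicate 1. The part of base composition or length in the members' variation was not tested.

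**Figure D5:**
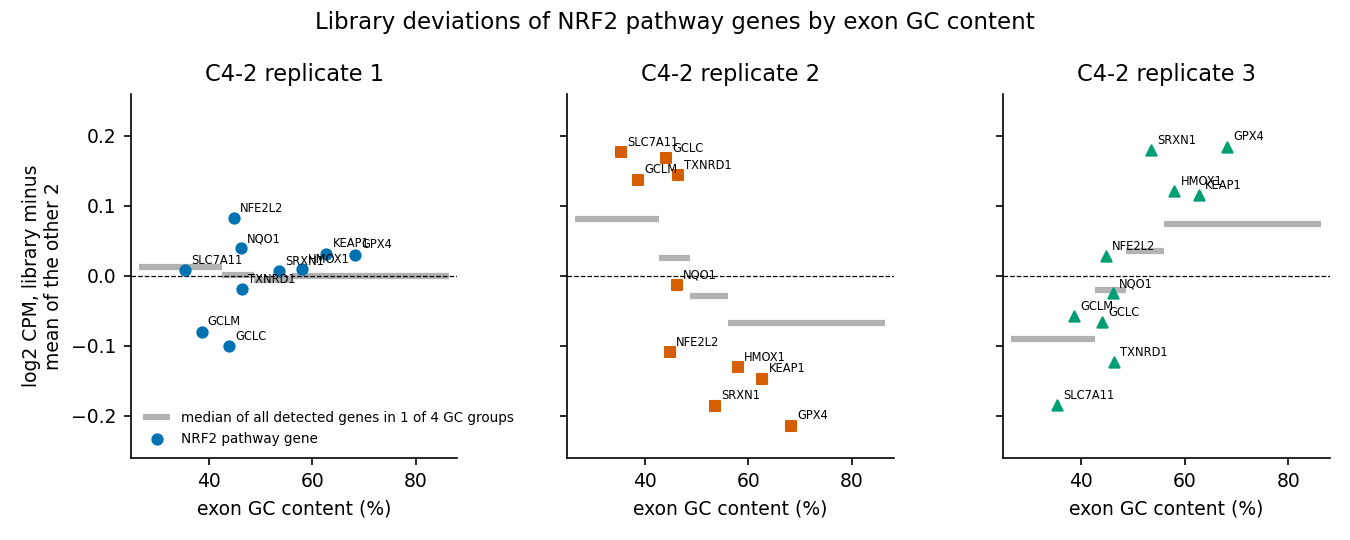
Deviation of each library from the mean of the other 2 (log2 CPM scaled by TMM) against exon GC content (%) for the 10 genes, 1 panel per library, with grey bars at the median of all detected genes in each of 4 GC groups. In replicate 2 GCLC, GCLM, TXNRD1 and SLC7A11 lie above 0.1 and GPX4 is lowest at −0.21, and in replicate 3 the grey bars run the other way.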

How the data were processed

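Total RNA of 3 C4-2 libraries was depleted of ribosomal RNA and made into directional libraries, per the labels' protocols. Per the submitters' processing notes, the tools were STAR 2.7.0f for GRCh38, DESeq2 1.26.0, Subread 1.6.3, Trim Galore and FastQC. Per the file headers, featureCounts 1.6.3 made the deposited raw counts, 1 value per Ensembl release 90 gene, with only the annotation, output and threads set: strand was then ignored, reads with several places or several genes were dropped, and mates were counted singly. Intervals and limits cover counting error only; the counting error of a member count was 0.833% to 4.76%, or 1.18% to 6.73% where a fragment gave a pair of reads.

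The steps computed here began from those counts. Names came from GENCODE release 44 (57532 of 58302 identifiers matched). TPM used the length column, which equalled the merged exon length, over all genes. TMM factors came from edgeR 4.0.16 and the alternative size factors from DESeq2 1.42.0 in R 4.3.3; fits leaving out a library kept the TMM factors of all 3. Other steps used Python 3.11.15, numpy 2.4.6, pandas 2.3.3, scipy 1.17.1 and matplotlib 3.10.9. Pair differences used log2(TPM + 0.1), a scale that compresses differences involving low values. Promoter sequences, from RefSeq, were checked against hg38. The members and lists were chosen with earlier results of these data known. Named genes were the members, the paired genes and, per list, the 3 highest, the lowest detected and those at 0; a few marker genes that this rule names are not reported here.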

Additional observations from a re-analysis of the deposited data

How the results depend on the processing

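The number of detected members (10) and of members at 1 TPM or more (10) held under each alternative tried, among them a minimum of 50 reads and a threshold of 10 TPM. The number of members varying beyond sampling noise was 8, beside 46.1% of detected genes, and fell to 5, beside 17.6%, with the statistic divided by 2. It was 8 with DESeq2 size factors and 6 with total counts as library sizes, for which no share of all genes is given here. Leaving out replicates 1, 2 and 3 in turn gave 8, 3 and 7, beside 32.8%, 23.8% and 23.8% of genes tested. With the halved statistic, leaving out a library gave 1 to 4, beside 5.89% to 14.9% of genes tested, an alternative chosen after seeing the data. Of 11 pairs, 7 kept their direction under each alternative. With the longest coding transcript as length, GCLC minus GCLM turned to 0.49, NQO1 minus NQO2 to −0.34 and GPX4 minus GPX1 to 0.28. On unshared exon bases SRXN1 minus SESN2 turned to 1.25. Leaving out a library turned no pair. TPM over nuclear protein-coding genes alone raised each member 1.52-fold. The longest coding transcript as length moved members 0.733-fold to 1.64-fold, and unshared exon bases 0.952-fold to 6.32-fold, the last being SRXN1. No paired analysis was possible because the libraries form 1 group. Depth does not limit the detection of the members, whose lowest count was 441 reads, but AIFM2 and the aldo-keto reductase genes rest on few reads. Calls of variation compare unlike depths. SRXN1, with 441 to 538 reads, deviated by −0.19 log2 units in replicate 2 and was not called. KEAP1, with 6615 to 7698 reads, deviated by −0.15 and was called.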

Other observations

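The ferritin heavy chain gene FTH1, an iron store and a known NRF2 target, had a wider spread between libraries than any of the 10 members, with a coefficient of variation of 15.1%. It had 14974, 10731 and 15613 reads, or 439, 343 and 461 TPM, with replicate 2 well below the other 2 (chi-square test of homogeneity with the statistic divided by 2, adjusted p = 5.80e-85). The light chain gene FTL lay at 551, 529 and 559 TPM, with replicate 2 also lowest (adjusted p = 0.000377). FTH1 has 49.6% GC and FTL 56.3%, and FTH1 shares 62.4% of its exon bases with BEST1, which had 290, 277 and 269 reads. The cause was not tested.

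The acyl ligases at either side of ferroptosis were far apart in level. ACSL3, which favours monounsaturated fatty acids, lay at 159, 170 and 143 TPM, and ACSL4, which favours polyunsaturated ones, at 1.59, 1.26 and 1.58 TPM. Of the lipoxygenase genes listed, ALOX15 was at percentile 94.9 among protein-coding genes, with 126, 131 and 130 TPM. ALOX5 lay at 0.420 ± 0.134 TPM, with 36, 20 and 21 reads. ALOX12 lay at 5.28 ± 0.582 TPM, and ALOX15B, with 8, 16 and 12 reads, was not detected. ALOX12 and ALOX15B were named after their values were seen. ALOX15 shares none of its exon bases with another gene.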
